A study of Mus musculus with 12 samples.

Results

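The antiviral genes that respond to type I interferon were followed in liver RNA-seq of mice with non-alcoholic steatohepatitis (NASH). The set holds 33 genes chosen by symbol, each matched to 1 Ensembl identifier of the count files through the GENCODE M21 annotation, out of 47729 identifiers in all. Every one of the 33 passed the filter on low counts, which left 16823 genes for testing. All 12 mice were male C57BL/6. The 4 healthy mice (Naive_vehicle) were not given streptozotocin, stayed on a normal diet and received vehicle. The 4 STAM-vehicle mice (STAM_vehicle) were injected with streptozotocin as neonates, which destroys pancreatic islet cells and leaves the animals diabetic, were then fed a high-fat diet, and received vehicle. The 4 STAM-I-BET151 mice (STAM_treated) had the same injection and diet and were dosed orally once a day with I-BET151 at 10 mg/kg while NASH was developing. I-BET151 is a compound that blocks the bromodomains of BET proteins, which bind acetylated histones and help to recruit the transcription machinery. Per the study's methods the drug was suspended in hydroxypropyl methylcellulose with Tween, whereas the vehicle control was methylcellulose, so the drug and its suspending agent cannot be told apart. The healthy and STAM-vehicle groups differ in both streptozotocin and diet, which cannot be told apart either.

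Type I interferons bind a receptor made of Ifnar1 and Ifnar2, whose kinases Jak1 and Tyk2 phosphorylate Stat2. Stat2 and Irf9 belong to the complex ISGF3, which binds a short element in the promoters of interferon-stimulated genes and switches on proteins that sense viral RNA, block its translation, degrade it or hold back virus release. Many of these genes keep a low tonic expression in uninfected liver, in hepatocytes as well as in Kupffer cells and other leukocytes.

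The libraries held from 34711229 to 53365596 counts each. The lowest total was that of STAM-I-BET151 mouse 3, close to 35171038 in STAM-I-BET151 mouse 2. The library of STAM-I-BET151 mouse 3 stood apart from the other 11. Its TMM scaling factor was 1.61 against 0.770 to 1.11 in the others, mitochondrial genes took 2.71% of its counts against 4.51% to 7.30%, and its 10 most abundant genes took 7.95% against 13.5% to 18.0%. The summed level of 6 hepatocyte markers was 21827 CPM in this mouse and at least 54492 CPM in every other mouse, so all 12 libraries carried a strong hepatocyte signal that was lowest here. The tests on the 33 genes are therefore given with this mouse and without it. The files name a sequencing lane for every library. Healthy mice 2 and 3 shared a lane with no STAM mouse, STAM-vehicle mouse 2 was alone in its lane, and mice 1, 3 and 4 of the STAM-vehicle group each shared a lane with the STAM-I-BET151 mouse of the same number. In whole liver, fewer cells of a type and less RNA per cell cannot be told apart. Nothing in the labels gives litters or cages, and p-values measure the spread between these mice.

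The ISGF3 complex recognises an element close to GAAA, then any 2 bases, then GAAA, so the promoters were read for this motif. RefSeq (GRCm38.p6) windows of 300 bases, 250 before the transcription start and 50 after it, were found for 23 of the 33 genes. The motif, on either strand and counting overlapping matches, occurred in the windows of 15 of these 23 genes, and in 12 of them before the start. Of all 27025 genes with a window, 3.99% held a match. The 250 bases before the start are shown for 7 genes that the results below turn on, 5′ to 3′ along the gene, with matches on either strand in capitals (on the other strand a match reads TTTC, any 2 bases, TTTC). In edgeR's test with all 12 mice, Oas1a and Oas3 were called above the healthy level in treated mice. Ifit1, Isg15, Rsad2 and Cmpk2 were called lower with treatment, and Stat2 was called in no comparison. Oas1a and Oas3 also had lower means with treatment, and were called lower without STAM-I-BET151 mouse 3.
Oas1a (chr5:120907526-120907775, minus strand): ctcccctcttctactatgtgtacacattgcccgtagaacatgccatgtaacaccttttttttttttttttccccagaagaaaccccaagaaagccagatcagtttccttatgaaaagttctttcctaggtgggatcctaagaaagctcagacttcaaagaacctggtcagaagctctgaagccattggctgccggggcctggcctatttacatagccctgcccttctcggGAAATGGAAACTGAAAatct
Oas3 (chr5:120777660-120777909, minus strand): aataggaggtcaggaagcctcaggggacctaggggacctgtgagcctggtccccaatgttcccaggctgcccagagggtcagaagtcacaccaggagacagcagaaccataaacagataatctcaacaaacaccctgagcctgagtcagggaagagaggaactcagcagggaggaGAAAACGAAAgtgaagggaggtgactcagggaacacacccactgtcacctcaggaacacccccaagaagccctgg
Ifit1 (chr19:34640639-34640888, plus strand): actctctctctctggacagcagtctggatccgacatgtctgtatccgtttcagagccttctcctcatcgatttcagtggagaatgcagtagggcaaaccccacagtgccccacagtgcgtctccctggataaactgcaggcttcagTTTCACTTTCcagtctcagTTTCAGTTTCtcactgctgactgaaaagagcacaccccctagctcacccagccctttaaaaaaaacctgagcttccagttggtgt
Isg15 (chr4:156200819-156201068, minus strand): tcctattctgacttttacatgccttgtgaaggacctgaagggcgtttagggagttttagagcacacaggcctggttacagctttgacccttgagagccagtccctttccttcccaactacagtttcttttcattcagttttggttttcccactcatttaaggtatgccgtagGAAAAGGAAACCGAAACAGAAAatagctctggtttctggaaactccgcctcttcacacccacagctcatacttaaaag
Rsad2 (chr12:26456453-26456702, minus strand): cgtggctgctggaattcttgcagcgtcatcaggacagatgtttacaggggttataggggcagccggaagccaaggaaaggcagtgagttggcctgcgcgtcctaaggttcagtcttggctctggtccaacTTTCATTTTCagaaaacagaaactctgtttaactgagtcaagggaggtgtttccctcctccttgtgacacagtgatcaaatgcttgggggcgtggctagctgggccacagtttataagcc
Cmpk2 (chr12:26468965-26469214, plus strand): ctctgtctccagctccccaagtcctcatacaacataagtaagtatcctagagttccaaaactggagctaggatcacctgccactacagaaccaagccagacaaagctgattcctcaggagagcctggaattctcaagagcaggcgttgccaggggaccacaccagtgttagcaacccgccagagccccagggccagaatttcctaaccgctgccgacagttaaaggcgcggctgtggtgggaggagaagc
Stat2 (chr10:128270248-128270497, plus strand): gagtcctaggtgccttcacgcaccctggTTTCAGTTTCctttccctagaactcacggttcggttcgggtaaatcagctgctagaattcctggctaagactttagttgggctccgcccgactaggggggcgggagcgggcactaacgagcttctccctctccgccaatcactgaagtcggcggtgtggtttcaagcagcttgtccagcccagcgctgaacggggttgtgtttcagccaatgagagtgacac

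Isg15 held 3 overlapping matches, the first beginning 78 bases before the start, and Oas1a held 2 overlapping matches from 20 bases before it. Ifit1 held 2 separate matches, at positions -104 and -85 from the start. Oas3, Rsad2 and Stat2 held 1 each, beginning 75, 120 and 222 bases before the start, and the Cmpk2 window held none. A match describes the letters only, and the lack of one says nothing about binding.

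The genes lie on 14 chromosomes, and several lie close together. Oasl1 and Oasl2 lie between chr5:114896936 and chr5:114937915, and Mx1 and Mx2 between chr16:97447035 and chr16:97560900. The 6 Oas1, Oas2 and Oas3 genes lie between chr5:120730333 and chr5:120907521, and the 4 IFIT genes between chr19:34550694 and chr19:34650009 (GRCm38). Rsad2 (chr12:26442746-26456452) and Cmpk2 (chr12:26469204-26479837) are neighbours transcribed away from each other, with 12751 bases between them. Some members share sequence. Of the distinct stretches of 101 bases in its transcripts, the read length, Oas1a shared 40.6% with Oas1g and Oas1g shared 31.0% with Oas1a. Ifit3 shared 31.3% with Ifit3b, and Ifit3b 27.1% with Ifit3. The separate values of these 2 pairs are therefore uncertain.

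Expression was highest per length for Bst2 in each group, at 53.0 ± 3.21 CPM per kilobase of exon in healthy mice, 76.2 ± 2.96 in STAM-vehicle mice and 54.7 ± 14.7 in STAM-I-BET151 mice (mean ± SD, n = 4). Bst2 encodes tetherin, which holds budding virus at the cell surface. Stat2 came second in every group, with 17.6 ± 2.96, 21.8 ± 1.04 and 24.6 ± 14.5 CPM per kilobase. Oas3 was the lowest of the 33 in every group, at 0.121 ± 0.0305, 0.755 ± 0.190 and 0.404 ± 0.166 CPM per kilobase. From healthy to STAM-vehicle liver Oas1a moved from place 25 to place 14 in the order of levels and Ifi27l2a from 18 to 8, and from STAM-vehicle to STAM-I-BET151 liver Ifit1 moved from place 11 to 24. Neighbours in this order often overlapped: in STAM-vehicle mice Isg15 (13.1 ± 2.61), Ifit3 (12.6 ± 1.54) and Irf9 (11.7 ± 0.714) lay within their spread of each other. All other levels below are CPM after TMM normalization, which compare mice but not genes.

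**Figure D1:**
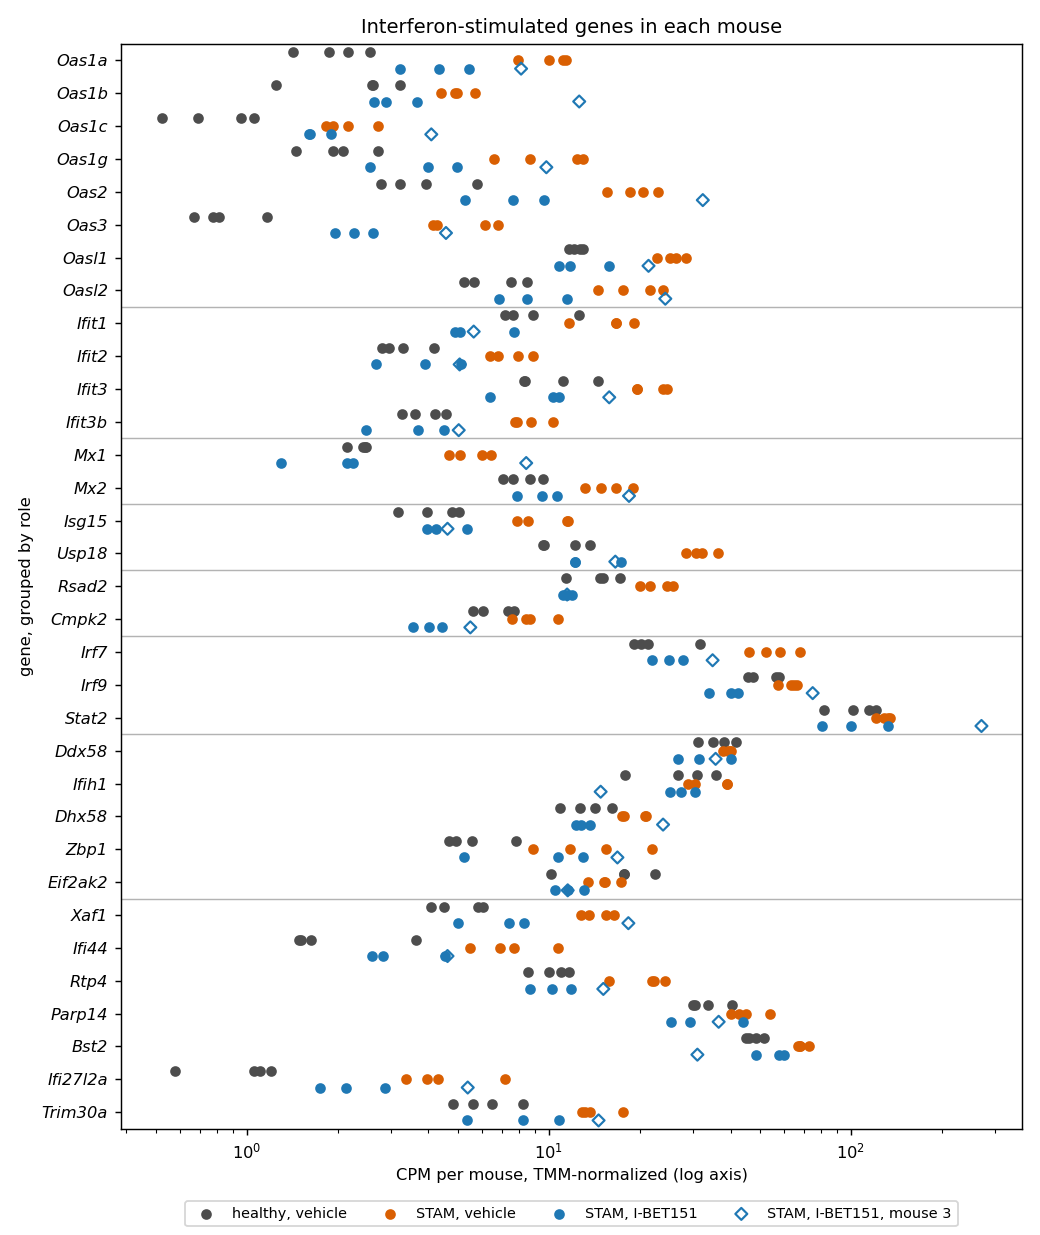
TMM-normalized CPM (log axis) of each of the 33 genes in each mouse, grouped by role, with grey for healthy, orange for STAM-vehicle and blue for STAM-I-BET151 mice and an open diamond for STAM-I-BET151 mouse 3. The orange points lie to the right of all grey points for 25 of the 33 genes, and the open diamond lies among or beyond the orange points for 16 genes.

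STAM-vehicle against healthy liver asks how the disease model alone moved these genes. In edgeR's quasi-likelihood test, 22 of the 33 genes rose and 0 fell with the adjusted p limited to 0.05, where 5.72% of all tested genes were called higher, 1.38% lower and 7.1% in either direction. At an unadjusted p under 0.05 the number was 28, where 3749 of all 16823 genes passed. DESeq2 called 23 and limma-voom with sample weights called 30, again 0 of them lower, where they called 1910 of 29576 and 5672 of 16823 genes. The median change was 1.15 on the log2 scale, a 2.22-fold higher level, against 0.01 over all tested genes. All 4 STAM-vehicle mice lay above all 4 healthy mice for 25 of the 33 genes, as they did for 14.2% of all tested genes, and below them for 0 genes, as they did for 12.2%. Without STAM-I-BET151 mouse 3, which is in neither group but enters the shared filter, scaling and estimate of spread, 26 genes were called, all higher, where 12% of all genes were called higher and 10.3% lower (22.3% in either direction). These included the 22, and added Oas1b, Mx1, Dhx58 and Bst2. Leaving out each of the 12 mice in turn, Ifit1 passed in 6 fits, Mx2 and Zbp1 in 7, Ifit3 in 8, Oas1c and Oasl2 in 9, Trim30a in 10 and the other 15 of the 22 in all 12.

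The OAS family, whose active members are switched on by double-stranded RNA to make the messenger that activates RNase L, had 7 of 8 genes called and a median log2 change of 1.92. Oas3 (ENSMUSG00000032661, chr5:120753098-120777661) measured 0.809, 1.17, 0.669 and 0.776 CPM in the 4 healthy mice and 4.13, 4.27, 6.81 and 6.13 CPM in the 4 STAM-vehicle mice. The lowest STAM-vehicle mouse was well above the highest healthy mouse. This was the largest change of the 33 genes, a 6.22-fold rise (log2 2.64 ± 0.30 SE, edgeR adjusted p = 0.000318). Oas1a (ENSMUSG00000052776) rose from 2.17, 2.57, 1.42 and 1.87 CPM to 7.91, 10.1, 11.1 and 11.4 CPM, with no overlap (log2 2.33 ± 0.27, edgeR adjusted p = 0.000364). Oas2 rose from 3.94, 5.77, 3.23 and 2.79 CPM to 18.7, 15.6, 23.0 and 20.5 CPM (log2 2.30 ± 0.47, edgeR adjusted p = 0.0104). Oas1g rose by 2.30, Oasl2 by 1.53, Oas1c by 1.41 and Oasl1, a gene whose product holds back Irf7 translation, by 1.06 on the log2 scale. Oas1b, at 3.21, 2.6, 1.25 and 2.62 CPM in healthy and 4.40, 4.97, 5.69 and 4.90 CPM in STAM-vehicle mice, did not overlap between the groups but missed the threshold with all 12 mice (log2 1.04 ± 0.45, edgeR adjusted p = 0.188) and passed it without STAM-I-BET151 mouse 3 (log2 1.02 ± 0.23, edgeR adjusted p = 0.00964).

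All 4 IFIT genes, which bind foreign RNA and block its translation, rose, with log2 changes from 0.82 for Ifit1 to 1.18 for Ifit2. Ifit2 measured 2.81, 4.19, 3.28 and 2.96 CPM in healthy and 6.80, 6.38, 8.86 and 7.94 CPM in STAM-vehicle mice. The groups did not overlap (log2 1.18 ± 0.22, edgeR adjusted p = 0.00585). For Ifit1 (ENSMUSG00000034459, chr19:34640871-34650009) the values were 7.60, 12.6, 8.90 and 7.19 CPM and 11.6, 16.7, 16.8 and 19.1 CPM. Here healthy mouse 2 lay above STAM-vehicle mouse 1, and the change was smaller (log2 0.82 ± 0.21, edgeR adjusted p = 0.0326). Isg15, a ubiquitin-like protein joined to other proteins during the interferon response, rose from 3.96, 5.06, 3.17 and 4.77 CPM to 8.53, 7.85, 11.5 and 11.6 CPM (log2 1.22 ± 0.19, edgeR adjusted p = 0.00241). Usp18, the protease that removes Isg15 and damps the interferon receptor, rose from 12.2, 13.7, 9.65 and 9.60 CPM to 30.8, 28.4, 32.3 and 36.3 CPM (log2 1.5 ± 0.16, edgeR adjusted p = 0.000212). Neither gene overlapped between the groups.

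Of the Mx GTPases, which trap viral nucleocapsids, Mx2 rose from 9.56, 8.66, 7.06 and 7.62 CPM to 13.2, 15, 16.7 and 19.1 CPM (log2 0.96 ± 0.23, edgeR adjusted p = 0.0238). Mx1, which carries a disabling deletion in most inbred strains, measured 2.43, 2.49, 2.47 and 2.16 CPM and 4.66, 5.09, 6.04 and 6.45 CPM, also without overlap, and was called only without STAM-I-BET151 mouse 3 (edgeR adjusted p = 0.112 with all mice and 0.00116 without it). Rsad2 encodes viperin, which makes a chain-terminating nucleotide, and its neighbour Cmpk2 encodes a mitochondrial nucleotide kinase. Rsad2 rose from 15.2, 17.2, 14.7 and 11.4 CPM to 24.7, 21.7, 20.1 and 25.8 CPM, without overlap (log2 0.66 ± 0.13, edgeR adjusted p = 0.0101). Cmpk2, at 7.32, 7.66, 6.05 and 5.61 CPM and 7.57, 8.67, 8.40 and 10.8 CPM, overlapped between the groups and did not pass the test (log2 0.41 ± 0.17, edgeR adjusted p = 0.179).

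The 3 transcription factors differed in size of change. Irf7, the factor that amplifies interferon-alpha genes, rose from 19.2, 31.7, 20.3 and 21.3 CPM to 45.9, 52.2, 58.1 and 67.9 CPM (log2 1.28 ± 0.19, edgeR adjusted p = 0.00176). Stat2 and Irf9, partners in ISGF3, did not pass the test, with log2 changes of 0.31 ± 0.30 and 0.28 ± 0.20 (edgeR adjusted p = 0.584 and 0.459). Among the 5 sensors of viral nucleic acid, Zbp1, which binds Z-form nucleic acid, rose from 5.58, 7.79, 4.68 and 4.92 CPM to 8.87, 11.8, 22 and 15.5 CPM (log2 1.34 ± 0.33, edgeR adjusted p = 0.0288). The other sensors did not pass: Ddx58 (RIG-I), Ifih1 (MDA5), Dhx58 (LGP2) and Eif2ak2 (the kinase PKR) had log2 changes of 0.10, 0.30, 0.51 and -0.15. Eif2ak2 was the only one of the 33 with a lower mean in STAM-vehicle liver.

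Of the other 7 effectors, 5 rose. Ifi27l2a, a small mitochondrial protein, rose from 1.11, 1.06, 0.581 and 1.21 CPM to 3.97, 3.37, 7.16 and 4.31 CPM (log2 2.24 ± 0.37, edgeR adjusted p = 0.00343). Ifi44 rose by 1.90, Xaf1, a partner of the apoptosis inhibitor XIAP, by 1.5, Trim30a, a brake on NF-κB signalling, by 1.19 and Rtp4 by 1.03 on the log2 scale. For Ifi44 healthy mouse 2 stood apart at 3.63 CPM, where the other healthy mice lay at 1.51, 1.63 and 1.5 CPM. Healthy mouse 2 was the highest healthy mouse for 28 of the 33 genes. Bst2 and the ADP-ribosyltransferase Parp14 did not pass, with log2 changes of 0.52 and 0.44. Within the 1 lane that holds both groups, STAM-vehicle mouse 4 exceeded healthy mouse 1 for all 33 genes, with a median log2 difference of 1.28. An edgeR fit with lane as a covariate called 37 of all 16823 genes and 0 of the 33. At an unadjusted p under 0.05 it had 22 of the 33 and 1298 of all 16823 genes. The median log2 change of the 33 was 0.97.

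Markers of several cell types differed in the same comparison. The summed level of 7 Kupffer cell and macrophage markers ranged from 150.2 to 225.4 CPM in healthy and from 256.6 to 474.7 CPM in STAM-vehicle mice, and 4 of the 7 were called higher (6 without treated mouse 3). The 3 monocyte markers summed to between 1.34 and 3.19 CPM and between 4.23 and 9.87 CPM, with 2 called higher in both fits. Neutrophil markers summed to between 0.518 and 0.872 CPM and between 1.35 and 5.55 CPM, and conventional dendritic cell markers to between 5.83 and 8.07 CPM and between 9.28 and 13.1 CPM, with 0 called of either in edgeR's test and 2 of each without mouse 3. The 6 hepatocyte markers summed to between 106173 and 127420 CPM in healthy and between 54492 and 72994 CPM in STAM-vehicle mice, also without overlap, with 0 called and 3 called lower without mouse 3. Of 7 T cell markers 1 was called higher (2 without mouse 3). The part of these cells in the rise of the interferon-stimulated genes was not tested.

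STAM-I-BET151 against STAM-vehicle liver asks what the inhibitor did within the model. With the adjusted p limited to 0.1 in edgeR's test, 8 of the 33 genes fell and 0 rose, where 0.256% of all tested genes were called lower, 0.0951% higher and 0.351% in either direction. At an unadjusted p under 0.05 the number was 18, where 1460 of all 16823 genes passed. DESeq2 called 14 and limma-voom with sample weights 25, all lower, where they called 174 of 29576 and 685 of 16823 genes lower. The median change was -0.62 on the log2 scale, against 0.02 over all tested genes, and 30 of the 33 means were lower. All treated mice lay below all STAM-vehicle mice for 14 genes, as they did for 2.63% of all tested genes, and above them for 0 genes, as they did for 2.41%. Without STAM-I-BET151 mouse 3, 21 genes were called lower and 0 higher, where 1.46% of all genes were called lower, 0.914% higher and 2.38% in either direction, the median change was -1.03, all 33 means were lower, and 27 genes lay below without overlap and 0 above, as against 8.35% and 7.47% of all genes. The 21 included the 8. Several of these genes, Rsad2 among them, were named by the study from these same libraries, so the direction of the set is not independent evidence.

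**Figure D2:**
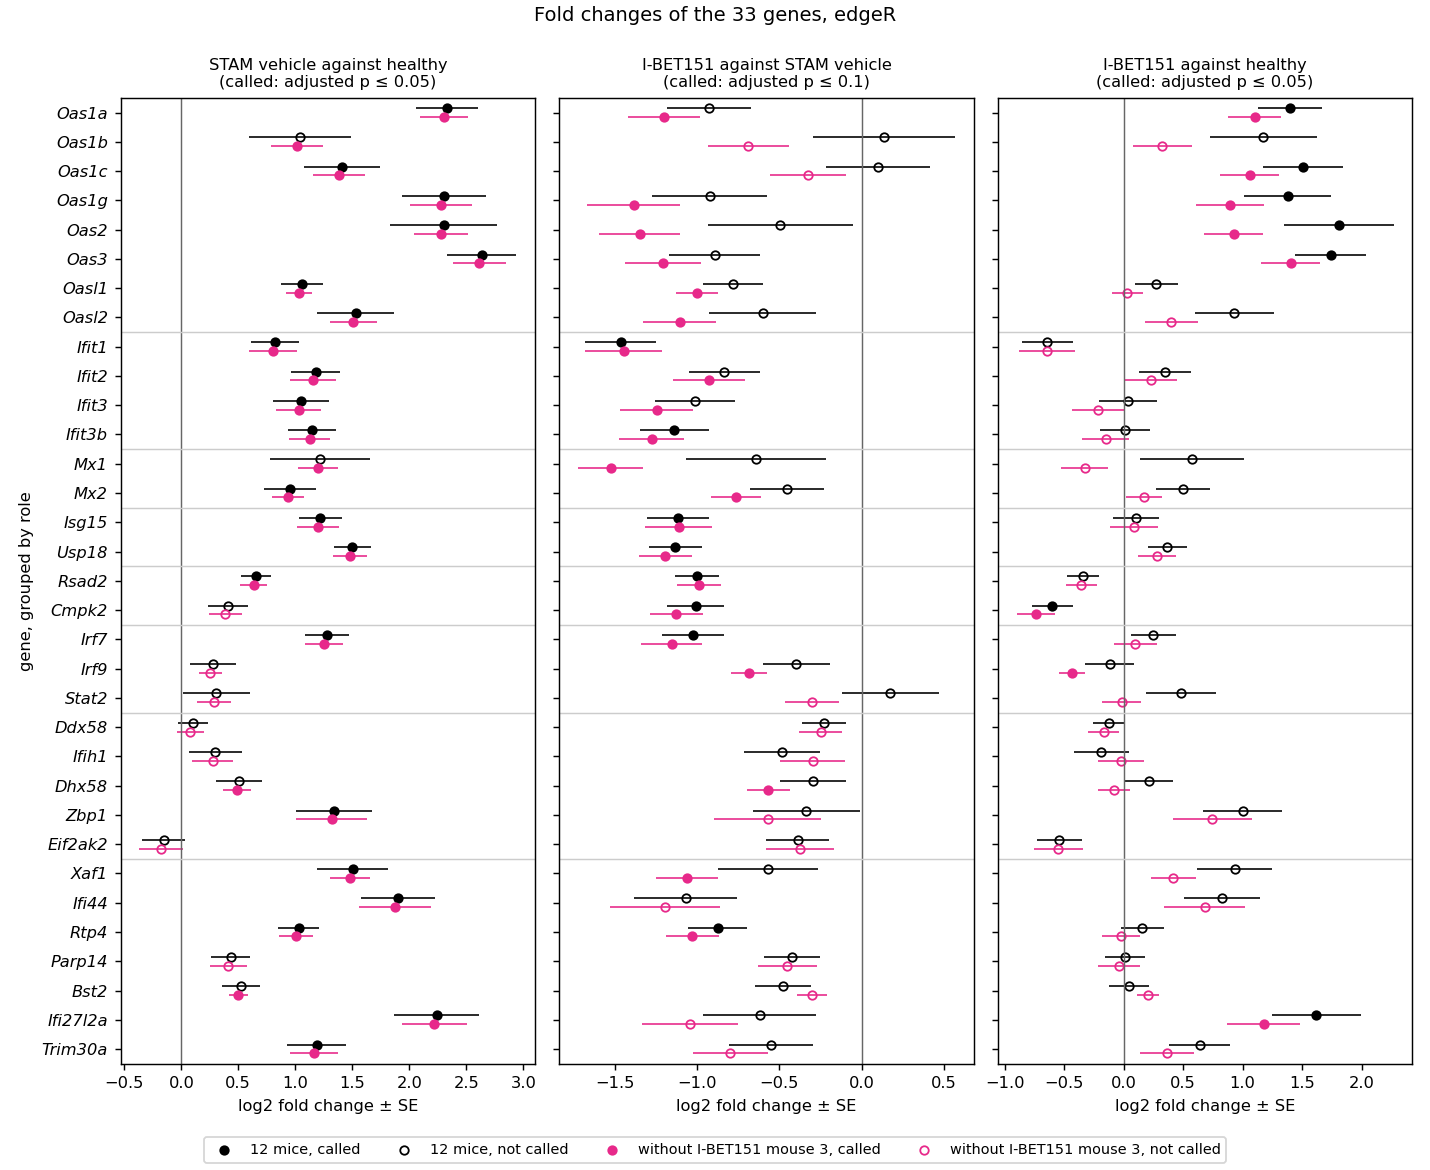
Log2 fold change ± SE (edgeR) of the 33 genes in the 3 comparisons, in black with all 12 mice and in pink without STAM-I-BET151 mouse 3, with filled points for genes past the threshold given above each panel. In the middle panel 8 black and 21 pink points are filled, all left of 0, and the pink points of the OAS and Mx genes lie further left than the black ones.

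The 8 genes were Ifit1, Ifit3b, Usp18, Isg15, Irf7, Cmpk2, Rsad2 and Rtp4. Ifit1 changed most, from 11.6, 16.7, 16.8 and 19.1 CPM in STAM-vehicle mice to 5.10, 7.65, 5.65 and 4.89 CPM in treated mice. All 4 treated mice, mouse 3 included, lay below the lowest STAM-vehicle mouse. The level was 0.362 times that of the STAM-vehicle mice (log2 -1.47 ± 0.21, edgeR adjusted p = 0.0193). Rsad2 was the most even, from 24.7, 21.7, 20.1 and 25.8 CPM to 11.5, 12, 11.5 and 11.2 CPM (log2 -1.0 ± 0.13, edgeR adjusted p = 0.0186). Its treated mice spanned less than 1 CPM. Cmpk2, across the intergenic gap from Rsad2, fell from 7.57, 8.67, 8.40 and 10.8 CPM to 4.45, 3.55, 5.50 and 4.02 CPM (log2 -1.01 ± 0.17, edgeR adjusted p = 0.0426). Cmpk2 was the only one of the 8 that had not passed the test in STAM-vehicle against healthy liver (unadjusted p = 0.0332 in edgeR); both comparisons share the STAM-vehicle mice.

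Usp18 fell from 30.8, 28.4, 32.3 and 36.3 CPM to 12.2, 17.4, 16.6 and 12.2 CPM (log2 -1.13 ± 0.16, edgeR adjusted p = 0.0186). Isg15 fell from 8.53, 7.85, 11.5 and 11.6 CPM to 5.39, 3.95, 4.63 and 4.23 CPM (log2 -1.12 ± 0.19, edgeR adjusted p = 0.0375). Irf7 fell from 45.9, 52.2, 58.1 and 67.9 CPM to 27.9, 25.1, 34.9 and 22 CPM (log2 -1.03 ± 0.19, edgeR adjusted p = 0.0520). In all of these the treated and STAM-vehicle mice did not overlap. Ifit3b and Rtp4 also fell, with log2 changes of -1.14 and -0.88 (edgeR adjusted p = 0.0520 and 0.0865). Leaving out each of the 12 mice in turn, Ifit1, Usp18 and Rsad2 passed in all 12 fits, Isg15 in 10, Ifit3b in 9, Cmpk2 and Irf7 in 8 and Rtp4 in 2. Ifit2 and Ifit3 did not pass edgeR's test with all mice (log2 -0.83 ± 0.21 and -1.01 ± 0.24). They passed it without mouse 3 (edgeR adjusted p = 0.0716 and 0.0270), as every IFIT gene did. DESeq2 called both lower with all mice (DESeq2 adjusted p = 0.0170 and 0.00726).

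The OAS family had 0 of 8 genes called in edgeR's test with all 12 mice, and 4 at an unadjusted p under 0.05. Without mouse 3 it had 6 called, with a median log2 change of -1.16. Oas2 measured 18.7, 15.6, 23.0 and 20.5 CPM in STAM-vehicle mice and 9.67, 5.27, 32.4 and 7.61 CPM in treated mice. Treated mice 1, 2 and 4 lay below every STAM-vehicle mouse and mouse 3 above every one. The log2 change was -0.49 ± 0.44 with mouse 3 (edgeR adjusted p = 0.818) and -1.35 ± 0.25 without it (edgeR adjusted p = 0.0281). For Mx1 too, mouse 3 lay above every STAM-vehicle mouse and treated mice 1, 2 and 4 below. Its values were 4.66, 5.09, 6.04 and 6.45 CPM in STAM-vehicle and 2.14, 1.3, 8.43 and 2.25 CPM in treated mice. The log2 change was -0.64 ± 0.43 and, without mouse 3, -1.53 ± 0.20 (edgeR adjusted p = 0.740 and 0.00689). In treated mice Oas1a measured 5.46, 3.22, 8.10 and 4.34 CPM and Oas3 measured 2.61, 1.96, 4.57 and 2.27 CPM. Both passed edgeR's test only without mouse 3 (edgeR adjusted p = 0.0274 and 0.0329). DESeq2 with all 12 mice called Oas1a, Oas3 and Oasl1 lower (DESeq2 adjusted p = 0.0252, 0.0747 and 0.00586). It did not call Oas1b, Oas1c, Oas1g, Oas2 or Oasl2. For Oasl1 every treated mouse, mouse 3 included, lay below every STAM-vehicle mouse. In edgeR's test Oas1b and Oas1c passed neither with nor without mouse 3, and their log2 changes turned from 0.14 and 0.10 to -0.69 and -0.33.

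Stat2 measured 121, 135, 129 and 133 CPM in STAM-vehicle and 132, 80.3, 271 and 100 CPM in treated mice, the latter spread on both sides of the former. It passed in neither fit (log2 0.17 ± 0.30 and, without mouse 3, -0.30 ± 0.16). Irf9 passed without mouse 3 (log2 -0.69 ± 0.11, edgeR adjusted p = 0.0160) and not with it. The sensors had the smallest median log2 change of the roles, -0.34, and in edgeR's test with all mice 0 of 5 were called and 0 had an unadjusted p under 0.05. Dhx58 was the only sensor called without mouse 3 (log2 -0.57 ± 0.13), and Ddx58, Ifih1, Zbp1 and Eif2ak2 passed in neither fit. Of the other effectors Xaf1 joined Rtp4 without mouse 3 (log2 -1.06 ± 0.19, edgeR adjusted p = 0.0270). Ifi44, Ifi27l2a, Trim30a, Parp14 and Bst2 passed in neither edgeR fit, with log2 changes without mouse 3 from -1.19 for Ifi44 to -0.30 for Bst2. Of these, DESeq2 with all mice called Ifi44 lower (DESeq2 adjusted p = 0.0490) and not the others.

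**Figure D3:**
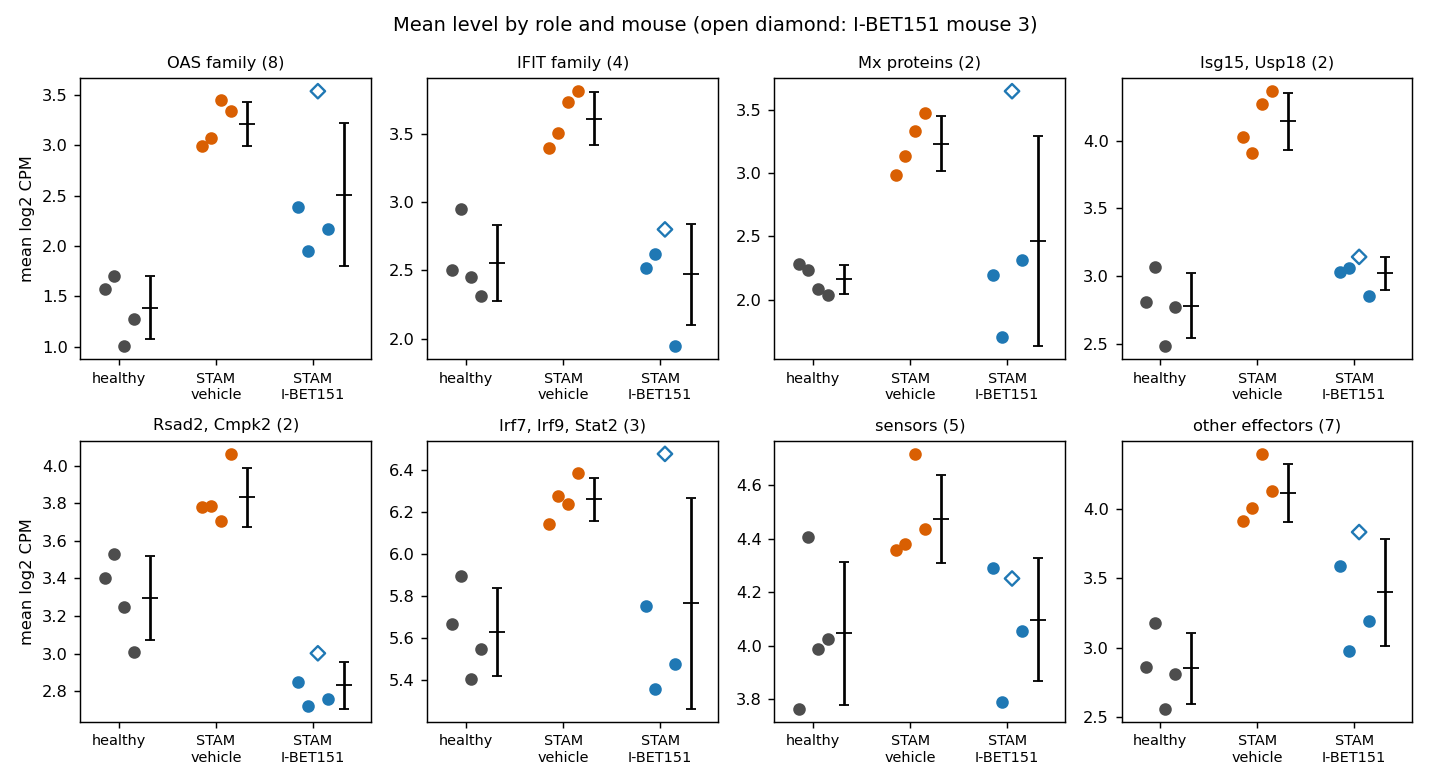
Mean log2 CPM over the genes of each role (number of genes in brackets) in each mouse, with the group mean ± SD (n = 4) beside the points and an open diamond for STAM-I-BET151 mouse 3. The vertical axes differ between panels and do not start at 0. Mouse 3 lies above all STAM-vehicle mice for the OAS, Mx and transcription factor means and with the other treated mice for Isg15 and Usp18.

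Averaged over the 33 genes the level was 2.88 ± 0.23 log2 CPM in healthy mice, 4.02 ± 0.17 in STAM-vehicle mice and 3.28 ± 0.40 in STAM-I-BET151 mice (SD, n = 4 each). Without mouse 3 the treated mean was 3.09 ± 0.19 (SD, n = 3). Among mice that shared a lane, 30 of the 33 genes were lower in treated mouse 1 than in STAM-vehicle mouse 1, 23 in mouse 3 than in mouse 3, and 33 in mouse 4 than in mouse 4, with median log2 differences of -0.47, -0.46 and -1.24. All 8 called genes were lower in each of the 3 lanes. This follows from their lack of overlap between the 2 groups and is no separate support. With lane as a covariate edgeR called 0 of all 16823 genes, the 33 included. At an unadjusted p under 0.05 it had 18 of the 33 and 1485 of all 16823 genes. The median log2 change of the 33 was -0.68.

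T cell markers were lower in sum in treated mice. The sum of 7 T cell markers ranged from 6.69 to 8.66 CPM in STAM-vehicle and from 2.78 to 4.00 CPM in treated mice, with 1 of the 7, Cd4, called lower. The NK cell markers summed to between 2.44 and 3.54 CPM and between 1.08 and 2.0 CPM, with 0 of 3 called in edgeR's test and 1 called lower without mouse 3. Kupffer cell and macrophage markers overlapped, from 256.6 to 474.7 CPM and from 212.2 to 446.2 CPM, with 0 of 7 called. Plasmacytoid dendritic cells, a main source of type I interferon, had 4 markers listed, which summed to between 0.857 and 1.66 CPM in STAM-vehicle and between 0.572 and 1.00 CPM in treated mice, with 0 of the 2 tested called. The part of these cells in the lower levels of the interferon-stimulated genes was not tested.

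Mouse 3 split the set. Against the range of the 4 STAM-vehicle mice, its level was above the range for 9 genes, within it for 7 and below it for 17. The 9 were Oas1b, Oas1c, Oas2, Oasl2, Mx1, Irf9, Stat2, Dhx58 and Xaf1. Over all tested genes it was above the range for 39.2%, within it for 22.5% and below for 38.3%. The library thus differed widely, and such a split was not particular to the set. In treated mice 1, 2 and 4 no member was above the range, and 28, 33 and 31 members were below it, against 25.6%, 29.6% and 26.8% of all tested genes.

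By family the ratios differed in their medians, while their ranges overlapped in part. The ratio of mouse 3 to the mean of the other treated mice had a median of 2.47 over the 8 OAS genes, from 1.67 for Oasl1 to 4.31 for Oas2. For the Mx genes the ratios were 4.44 for Mx1 and 1.98 for Mx2. Over the 4 IFIT genes the median was 1.36, from 0.960 for Ifit1 to 1.73 for Ifit3, which overlapped the OAS range. Isg15, Usp18, Rsad2 and Cmpk2 lay at 1.02, 1.2, 0.997 and 1.37. Stat2 stood at 270.8 CPM in mouse 3, 2.6 times the mean of the other treated mice. In the opposite direction Ifih1 and Bst2 were at 0.537 and 0.560 of that mean. Levels in 1 mouse carry no replicate error, and these ratios have no test. They were not made over all genes, so a difference between families is not shown.

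**Figure D4:**
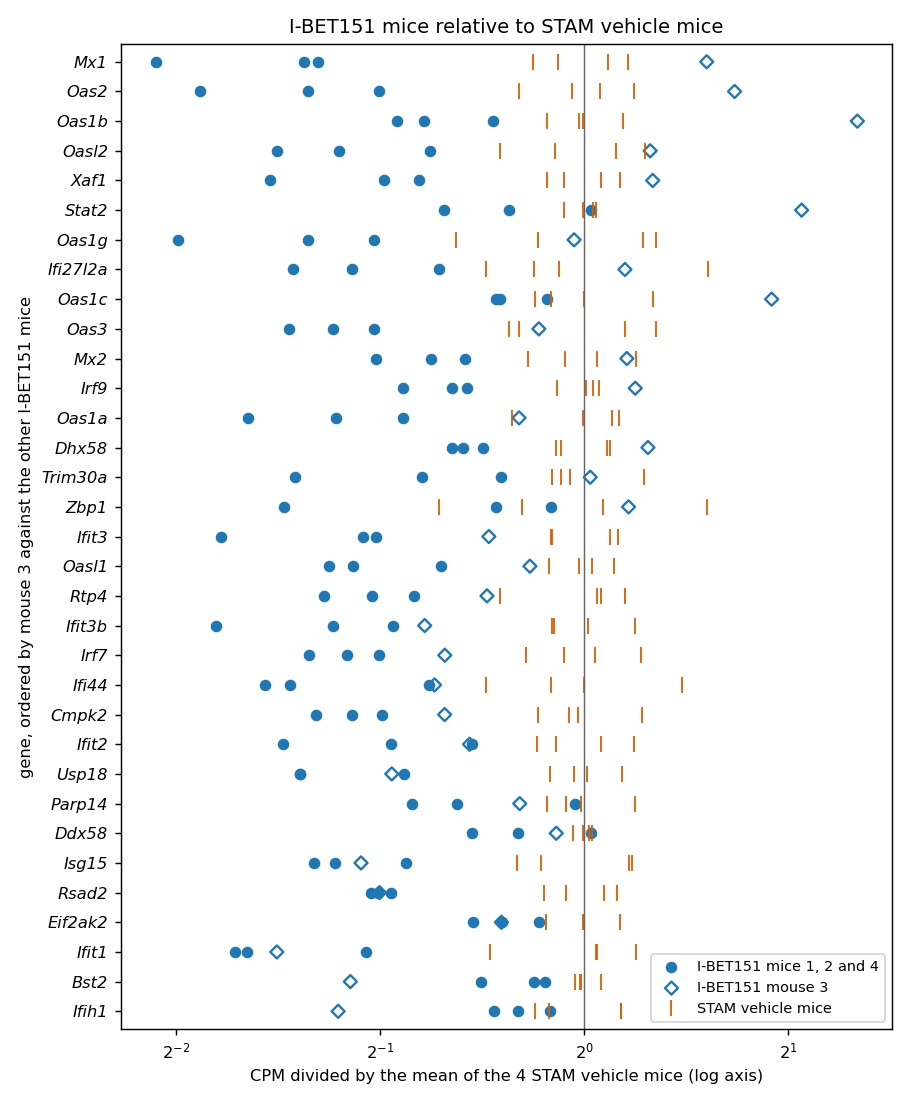
CPM of each STAM-I-BET151 mouse divided by the mean of the 4 STAM-vehicle mice (log axis), with orange ticks for the STAM-vehicle mice, filled points for treated mice 1, 2 and 4 and an open diamond for mouse 3, ordered by the ratio of mouse 3 to the other treated mice. The filled points lie left of 1 for nearly every gene, whereas the diamond runs from 2.53 for Oas1b to 0.352 for Ifit1.

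STAM-I-BET151 against healthy liver asks where the treated mice ended relative to mice without the disease model. In edgeR's test with the adjusted p limited to 0.05, 6 of the 33 genes were higher, where 9.88% of all tested genes were, and 1 was lower, where 5.25% were (15.1% in either direction). The 6 were Oas1a, Oas1c, Oas1g, Oas2, Oas3 and Ifi27l2a, and the 1 was Cmpk2. By role these were 5 of the 8 OAS genes, 1 of the 7 other effectors and 1 of the 2 genes of the Rsad2-Cmpk2 locus. Of the 33 genes 4 lay above the healthy mice without overlap, where 10.9% of all genes did, and 1 lay below, where 8.85% did. Without mouse 3 the same 7 genes were called and Irf9 was added as lower, where 10.9% of all genes were called higher, 9.53% lower and 20.4% in either direction. In that fit 4 genes lay above the healthy mice without overlap and 2 below, where 14.6% and 13% of all genes did. The median log2 change over the 33 was 0.34, and 0.10 without mouse 3.

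Oas3 was at 0.809, 1.17, 0.669 and 0.776 CPM in healthy mice and 2.61, 1.96, 4.57 and 2.27 CPM in treated mice, with every treated mouse above every healthy one (log2 1.74 ± 0.30, edgeR adjusted p = 0.00280). Without mouse 3 the log2 change was 1.40 ± 0.25 (edgeR adjusted p = 0.00251). Oas1a gave log2 1.40 ± 0.27 with mouse 3 and 1.10 ± 0.22 without it, and Oas2 gave 1.81 ± 0.46 and 0.93 ± 0.25. Ifi27l2a was likewise higher, by log2 1.62 ± 0.37 and 1.18 ± 0.31. Cmpk2 was lower in treated than in healthy mice, at 4.45, 3.55, 5.50 and 4.02 CPM against 7.32, 7.66, 6.05 and 5.61 CPM with no overlap (log2 -0.60 ± 0.17, edgeR adjusted p = 0.0345). Leaving out each of the 12 mice in turn, Oas1a, Oas1c, Oas3 and Ifi27l2a passed in all 12 fits, Oas2 in 10, Oas1g in 9 and Cmpk2 in 5. Ifit1 and Rsad2 had means below the healthy mice without passing the test (log2 -0.64 ± 0.21 and -0.34 ± 0.13, edgeR adjusted p = 0.0568 and 0.0938). Isg15 was within 1 SE of the healthy level (log2 0.10 ± 0.19). Whether the OAS genes and the others differ in this respect was not tested. Within lanes, treated mouse 2 exceeded healthy mouse 4 for 22 of the 33 genes and treated mouse 4 exceeded healthy mouse 1 for 19. The within-lane counts were not made over all genes in any comparison. With lane as a covariate edgeR called 85 of all 16823 genes and 0 of the 33. At an unadjusted p under 0.05 it had 7 of the 33 and 2046 of all 16823 genes.

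Upstream of these genes, 55 genes of interferon signalling and sensing were listed and 34 passed the filter. The 21 interferon ligands were hardly counted. Of these, 14 had 0 counts in every library, where 0 counts allows a level of up to 0.0904 CPM in the library with the highest limit and 0.0538 CPM in that with the lowest (3 counts, counting error only), and the others except interferon gamma had at most 3 counts in a library. Interferon gamma had between 0 and 7 counts. In STAM-vehicle against healthy liver 7 of the 34 rose, where 5.72% of all tested genes did, and 0 fell, where 1.38% did. The 7 were the interferon-lambda receptor Ifnlr1 (log2 1.80 ± 0.35), the kinase Ikbke (log2 1.52 ± 0.21), the RNA and DNA receptors Tlr7 and Tlr9 (log2 1.39 and 1.37), the RIG-I ligase Rnf135 (0.69), Irf8 (0.67) and Traf3 (0.49). Without mouse 3, 9 rose and 2, Ifnar2 and Irf2, fell, where 12% of all genes were called higher and 10.3% lower. Ikbke, which phosphorylates Irf7, measured 19.3, 13.9, 21.7 and 23.5 CPM in healthy and 58.6, 46.6, 61.2 and 59.3 CPM in STAM-vehicle mice, with 59.9, 43.0, 84.6 and 57.8 CPM in treated mice. The treated mice overlapped the STAM-vehicle mice and lay above all healthy mice. With treatment edgeR called 0 of the 34, with 4 at an unadjusted p under 0.05, where 1460 of all 16823 genes passed. DESeq2 called 1, where it called 268 of 29576 genes. In treated against healthy liver 7 of the 34 were higher, where 9.88% of all tested genes were. Ifnlr1 (log2 2.43 ± 0.36) and Ikbke (log2 1.65 ± 0.21) changed the most.

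A further 55 interferon-stimulated genes outside the set were listed, of which 53 were matched and all 53 were tested. In STAM-vehicle liver 18 rose and 0 fell, where 5.72% and 1.38% of all tested genes did. The rise was led by Ifi27l2b (1.89, 1.96, 2.09 and 1.75 CPM in healthy and 23.7, 18.5, 42.0 and 22.6 CPM in STAM-vehicle mice, log2 3.79 ± 0.28) and Apol9a (log2 1.98 ± 0.16). Without mouse 3, 30 rose and 1, Lap3, fell, where 12% of all genes were called higher and 10.3% lower. With I-BET151 4 fell, where 0.256% of all tested genes did: Ifit1bl1, Apol9a, Apol9b and Ifi27. Apol9a went from 99.9, 111, 105 and 114 CPM to 44.8, 44.4, 55.0 and 34.1 CPM, with all 4 treated mice below every STAM-vehicle mouse (log2 -1.27 ± 0.15, edgeR adjusted p = 0.00947). Ifi27 went from 116, 96.2, 89.5 and 105 CPM to 66.0, 60.8, 71.8 and 45.5 CPM (log2 -0.74 ± 0.15). Apol9b gave a log2 change of -1.22 ± 0.17. Ifi27l2b, at 29.1, 18.6, 14.5 and 21.2 CPM in treated mice, overlapped the STAM-vehicle mice and stayed above every healthy mouse (log2 3.43 ± 0.28). Without mouse 3, 8 of the 53 were called lower, where 1.46% of all genes were.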

How the data were processed

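Liver RNA of 12 mice was sequenced with a stranded mRNA kit as paired reads of 101 bases, and the deposited files hold raw counts per Ensembl gene, made by the authors. The submitters' processing notes name STAR 2.5.1b, HTSeq and mm10. The strand setting of the counting was not given in the sources used here. No row without a gene name entered. Identifiers were matched to GENCODE M21 (47310 of 47729 matched). Groups came from the sample labels. The 33 genes, their roles and the other lists were chosen with earlier results of these data known, and some members were named by the study from these libraries. All members were named, with values per mouse for the smallest p of each role and for members that differ from their role. Genes were filtered with filterByExpr (minimum count 10) and fitted in edgeR 4.0.16 (TMM, quasi-likelihood test, 12 mice in 1 fit of 3 groups). Benjamini-Hochberg adjustment ran over all tested genes, with thresholds of 0.05 against healthy mice and 0.1 for treatment, as in the study. The study used DESeq2 and left out 1 treated library, which it did not name, because of low gene counts. The main fit here kept all 12 libraries, so its counts rest on another test and sample set. DESeq2 1.42.0 and limma 3.58.1 were alternatives. The SE came from the log2 change and the root of its F statistic. Log2 CPM used a prior count of 2. The edgeR step was tested on simulated data for treatment against STAM-vehicle. It recovered 58.5% of 200 changed genes, and 9.3% of its calls were false. The simulated libraries were drawn from a common mean profile, so none stood apart as STAM-I-BET151 mouse 3 does. Totals of 34711229 to 53365596 counts limit precision for the lowest member, whose mean was 83.3 counts per library. The result of 1 gene of the signalling list is not reported here. Lanes were read from the file names. Replicate numbers were not used to pair mice.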

Additional observations from a re-analysis of the deposited data

Results flagged for a closer look

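In 8 of 99 sets of 4 mice (33 genes in 3 groups) a single mouse stood apart by Dixon's criterion, which chance meets in about 1 in 20 groups. STAM-I-BET151 mouse 3 was high for Oas1b (12.6 CPM, the next treated mouse at 3.66), Oas1c (4.09 CPM, next 1.91), Oas2 (32.4 CPM, next 9.67), Mx1 (8.43 CPM, next 2.25) and Dhx58 (23.9 CPM, next 13.7). Healthy mouse 2 was high for Irf7 (31.7 CPM, next 21.3) and Ifi44 (3.63 CPM, next 1.63). STAM-vehicle mouse 3 was high for Trim30a (17.6 CPM, next 13.7).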

How the results depend on the processing

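The number of the 33 genes called in STAM-vehicle against healthy liver moved by over 1.5 times under 1 alternative, lane as a covariate (0). For STAM-I-BET151 against STAM-vehicle liver 8 were called, where 59 of all 16823 tested genes were. The number was 14 with DESeq2 (268 of all 29576 genes) and 25 with limma-voom sample weights (1205 of 16823). It was 26 with DESeq2 without mouse 3 (chosen after seeing the data, 1287 of 29120). At an adjusted p of at most 0.05 it was 5 (26 of 16823). A fit of only these 2 groups called 3 (8 of 16684), and the fit with lane called 0 (0 of 16823). Leaving out 1 mouse gave from 3 to 21. The number was 4 without STAM-vehicle mouse 2 (24 of all 17051 genes) and 3 without STAM-vehicle mouse 4 (13 of 17064). It was 4 without treated mouse 1 (13 of 17063), 4 without treated mouse 4 (33 of 17086) and 21 without treated mouse 3 (403 of 16967). The median log2 change of -0.62 became -1.03 without mouse 3, in edgeR and in DESeq2, and -1.02 with sample weights, and ranged from -1.03 to -0.49 when 1 mouse was left out. Oas1b turned from 0.14 to -0.69, and past the threshold, in DESeq2 without mouse 3. For STAM-I-BET151 against healthy liver 7 were called, where 2546 of all 16823 tested genes were. The number was 13 with DESeq2 (3427 of all 29576 genes), 12 with sample weights (4880 of 16823) and 11 with no filter (2294 of 29576). It was 4 in a fit of the 2 groups (1262 of 16022) and 0 with lane (85 of 16823). When 1 mouse was left out it ranged from 4 without healthy mouse 3 (1292 of 17243) to 12 without treated mouse 2 (3731 of 17178). The causes were not tested, except that the lane fit and the smaller fits have fewer mice or degrees of freedom. Every alternative kept the direction of the medians.

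With the replicate number as a block, 19, 3 and 5 of the 33 genes were called in the 3 comparisons. Of all 16823 genes 742, 10 and 1573 were. Same-numbered mice did not deviate together (mean correlations of -0.07, -0.06 and -0.15). With 4 mice a group this cannot exclude a pairing, and same-numbered treated and STAM-vehicle mice 1, 3 and 4 shared lanes. With 4 mice a group and a treated library that widens the spread, a gene that missed the threshold is not shown to be unmoved.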
